A study of Mus musculus with 24 samples.

Results

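The genes described here encode enzymes that carry pyruvate into the mitochondrial tricarboxylic acid (TCA) cycle and run the cycle. They are 9 genes taken by symbol: Pdha1, Pdhb and Dlat of the pyruvate dehydrogenase complex, Pcx (pyruvate carboxylase), Cs (citrate synthase), Idh3a (a subunit of NAD-dependent isocitrate dehydrogenase), Ogdh (the E1 subunit of the 2-oxoglutarate dehydrogenase complex), Fh1 (fumarate hydratase) and Mdh2 (mitochondrial malate dehydrogenase). All 9 were found in the count table, which lists 55414 genes, and all 9 were among the 10566 genes with enough counts to be tested. Splenic Tconv CD4+ cells (CD4+ CD25-) came from conplastic mice, which share the C57BL/6J nuclear genome and differ in their mtDNA. The mtDNA B6 mice (labelled WT) carry the mtDNA of C57BL/6J and the mtDNA NZB mice (labelled NZB) carry that of the NZB strain, and their cells are called B6 cells and NZB cells here. Cells were collected at rest (labelled RES) or after activation (labelled ACT) with beads against CD3 and CD28, the signalling part of the T cell receptor and a costimulatory receptor. The paper's methods name IL-2 beside the beads and an activation that lasted days for Tconv cells. Each of the 4 groups held 6 libraries, 24 in all. The labels give neither sex nor age per library. They also do not say whether the libraries of a group came from separate mice, so p-values measure the spread between these libraries only.

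The TCA cycle oxidizes acetyl-CoA and passes the electrons to the respiratory chain, part of which is encoded by mtDNA. Pyruvate reaches the cycle by 2 routes. The pyruvate dehydrogenase complex turns it into acetyl-CoA, and pyruvate carboxylase turns it into oxaloacetate, which refills the cycle when its intermediates are used for synthesis. A resting T cell has a small need for synthesis, whereas an activated T cell raises glycolysis and mitochondrial metabolism and draws on cycle intermediates to make aspartate, lipids and nucleotides. All 9 enzymes are encoded by nuclear genes and imported into the mitochondrion, so the 2 kinds of mice share these genes.

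RNA was measured with a bulk form of MARS-seq, which counts each captured 3′ end once by its unique molecular identifier (UMI). Levels are given as UMI counts scaled to 1000000 per library (CPM), with TMM factors between libraries. Totals ranged from 51409 to 6449395 UMI counts. The smallest library was replicate 2 of resting NZB cells, in which 1 count is worth 16.9 CPM, and the next smallest held 641467. Il2ra, the CD25 chain of the IL-2 receptor, had a mean of 3.00 CPM at rest and 79.8 CPM after activation in B6 cells, and 2.79 and 111.4 CPM in NZB cells. Mki67, a proliferation gene, rose by 1.89 ± 0.35 (log2 fold change ± SE) in B6 cells and by 2.41 ± 0.38 in NZB cells, with no overlap between states. Both belong to a list of 8 T cell activation markers. At an adjusted p of at most 0.05 (edgeR), 6 of the 8 rose and 1, Myc, fell in B6 cells, beside 22.4% and 24.5% of all genes. In NZB cells 5 rose, 0 fell and 3 were not called, beside 25.2% higher and 28.4% lower. The median sum of the list went from 473.8 to 2071 CPM in B6 cells and from 421.7 to 1844 CPM in NZB cells. The 9 marker genes of CD4 T cells summed to 4314 to 7801 CPM in every library. Markers of several other blood cells were lower after activation. The 7 B cell markers had a median sum of 21210 CPM at rest and 6384 CPM activated in B6 cells, and 21530 and 5378 CPM in NZB cells, although Cd79a, a subunit of the B cell receptor, had medians of only 38.8 to 49.9 CPM in the 4 groups. The sums went from medians of 2998 to 24.1 CPM and from 797 to 59.8 CPM for 8 granulocyte markers, from 1871 to 49.6 CPM and from 1114 to 76.4 CPM for 8 myeloid markers, and from 1452 to 27.4 CPM and from 242.3 to 34.8 CPM for 8 erythroid markers. Those of 2 CD8 T cell markers went up, from 68.6 to 276.8 CPM and from 51.9 to 164.5 CPM, as did those of 3 platelet markers, from 14.6 to 139.6 CPM and from 16.4 to 97.8 CPM. Treg and NK cell markers had median sums of 93.8 to 132.4 CPM and 25.6 to 44.4 CPM in the 4 groups. The part of these markers in the results below was not tested.

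Activation was compared with rest first, within each mtDNA. Fh1, Mdh2, Cs, Idh3a and Pcx rose and Ogdh fell in B6 cells. The same 6 genes changed in the same directions in NZB cells, and Dlat rose there as well. The genes for the 2 subunits of the E1 component of pyruvate dehydrogenase, Pdha1 and Pdhb, passed the test in neither. In B6 cells 5 of 9 rose and 1 fell at an adjusted p of at most 0.05 (edgeR's quasi-likelihood test, Benjamini-Hochberg adjustment over all genes tested), where 46.9% of all genes were called, 22.4% higher and 24.5% lower. In NZB cells 6 of 9 rose and 1 fell, where 53.5% of all genes were called, 25.2% higher and 28.4% lower. With a log2 fold change of at least 1 asked for as well, 1 of the 9 (Pcx) was called in B6 cells, beside 17.7% of all genes, and 3 (Pcx, Dlat and Fh1) in NZB cells, beside 23.4%. The median log2 fold change of the 9 genes was 0.32 in B6 cells and 0.67 in NZB cells, beside medians of -0.03 and -0.06 over all genes tested. In bulk RNA, fewer cells of a type and less RNA per cell cannot be told apart.

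**Figure D1:**
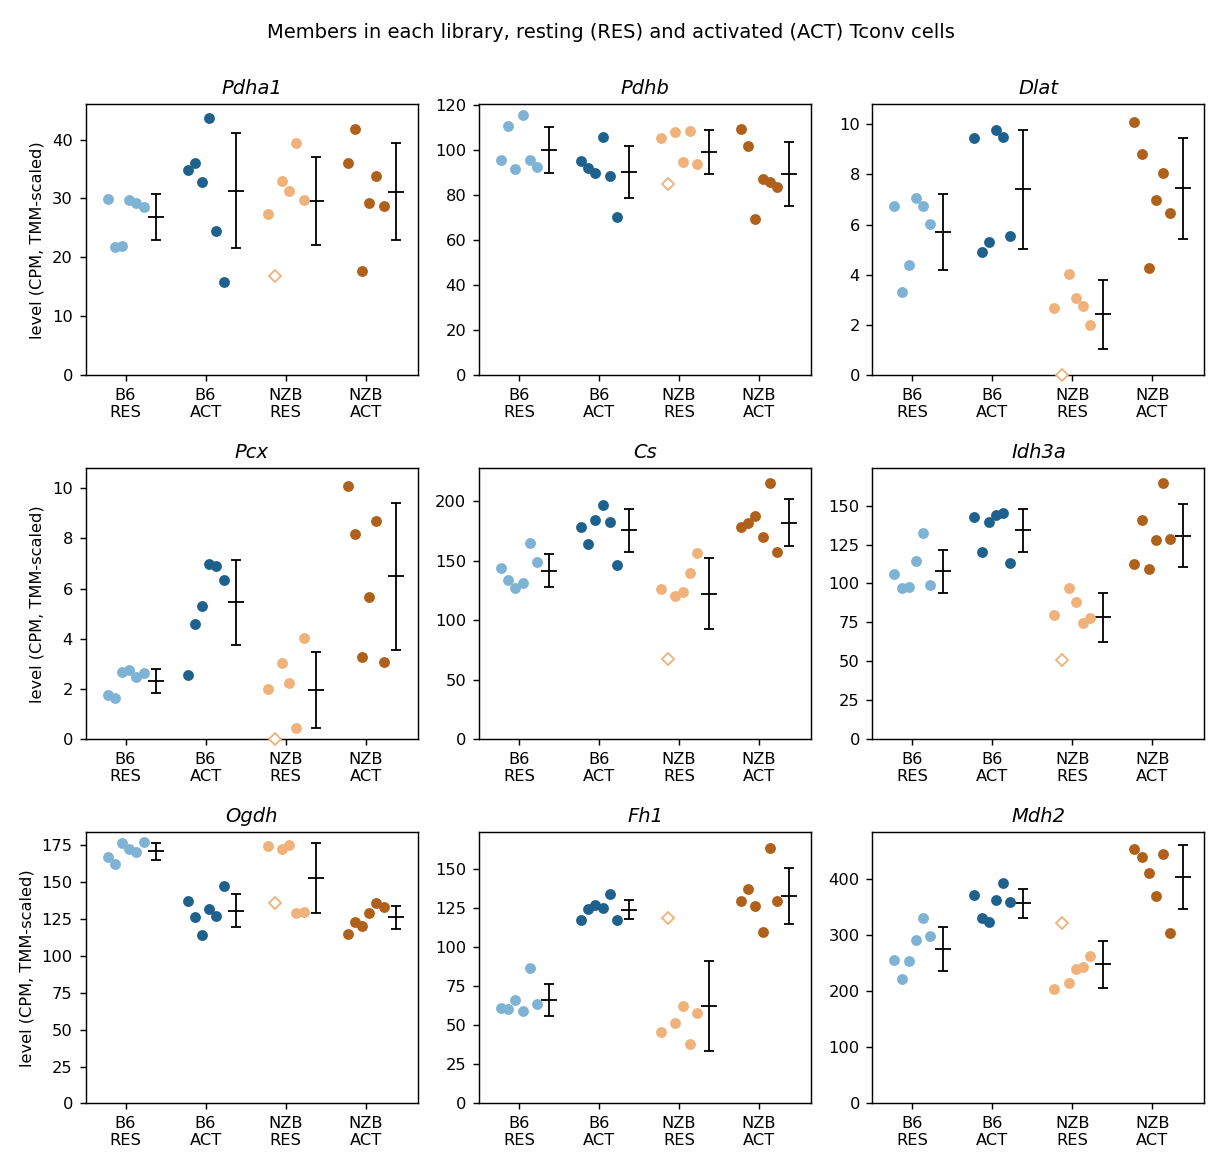
Each panel shows 1 gene, with its TMM-scaled level in CPM on the vertical axis (from 0) and the 4 groups of 6 libraries on the horizontal axis. Points are libraries, bars are the mean ± SD, and the open diamond is the library of 51409 UMI counts (replicate 2 of resting NZB cells). Fh1 lay between 58.7 and 86.3 CPM at rest and between 116.9 and 133.6 CPM after activation in B6 cells, while Pdhb overlapped between all 4 groups.

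Pdha1 encodes the alpha subunit of the E1 component of pyruvate dehydrogenase, the site of the inhibitory phosphorylation by the Pdk kinases. In B6 cells its lowest, median and highest libraries were 21.8, 28.9 and 29.9 CPM at rest and 15.9, 33.8 and 43.7 CPM after activation. In NZB cells they were 16.9, 30.5 and 39.4 CPM at rest and 17.7, 31.5 and 41.8 CPM after activation. The activated libraries reached both above and below the resting ones in B6 cells. In NZB cells the lowest resting value stands on 1 count in the smallest library, and the other 5 resting libraries lay between 27.4 and 39.4 CPM. The log2 fold change was 0.23 ± 0.19 in B6 cells (95% interval -0.17 to 0.62) and -0.04 ± 0.20 in NZB cells (-0.46 to 0.38). Pdhb, the beta subunit of E1, had 91.4, 95.5 and 115.5 CPM at rest and 70.1, 90.8 and 105.7 CPM after activation in B6 cells. It had 84.7, 99.9 and 108.6 CPM and then 69.4, 86.5 and 109.3 CPM in NZB cells. Its log2 fold changes were -0.15 (-0.37 to 0.07) and -0.19 (-0.42 to 0.04), so neither gene passed the test and both intervals of Pdhb exclude a doubling or a halving.

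Dlat encodes the E2 component of pyruvate dehydrogenase, the lipoyl-bearing acetyltransferase core. It was a low gene, with 0 to 46 counts per library. In B6 cells it measured 3.31, 6.38 and 7.05 CPM at rest and 4.90, 7.48 and 9.75 CPM after activation, and the 2 states overlapped. In NZB cells it measured 0, 2.71 and 4.03 CPM at rest and 4.25, 7.51 and 10.1 CPM after activation, and every activated library was above every resting one. The value of 0 is from the smallest library, where a count of 0 allows up to 50.8 CPM (3 counts, counting error only). Dlat rose by 1.29 ± 0.28 in NZB cells (edgeR, adjusted p = 0.000455), and its log2 fold change of 0.38 ± 0.24 in B6 cells did not pass (adjusted p = 0.191).

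Pcx encodes pyruvate carboxylase, the biotin-dependent enzyme of the second route. It too was low, with 0 to 33 counts per library. In B6 cells it measured 1.66, 2.56 and 2.74 CPM at rest and 2.55, 5.81 and 6.99 CPM after activation. A single activated library, replicate 1 at 2.55 CPM, lay within the resting range and the other 5 lay above it. In NZB cells the values were 0, 2.12 and 4.02 CPM at rest and 3.08, 6.91 and 10.1 CPM after activation, with 2 activated libraries, replicates 3 and 6, within the resting range. The log2 fold change was 1.22 ± 0.34 in B6 cells (edgeR, adjusted p = 0.0044) and 1.34 ± 0.37 in NZB cells (adjusted p = 0.00386). With a block by the number in the labels, the value in NZB cells was 0.72 and did not pass (edgeR, adjusted p = 0.197), and the changes of its 4 same-numbered pairs ran from -0.33 to 2.02 (log2), where those of the 5 pairs of B6 cells ran from 0.42 to 1.28. Taken as Pcx per 100 of the summed Pdha1, Pdhb and Dlat counts in the same library, the mean went from 1.77 ± 0.42 to 4.40 ± 1.76 in B6 cells (SD, n = 6) and from 1.47 ± 1.18 to 4.90 ± 1.64 in NZB cells, where the 5 resting libraries other than the smallest lay between 0.304 and 3.21.

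Cs encodes citrate synthase, which joins acetyl-CoA to oxaloacetate. In B6 cells it measured 126.9, 138.7 and 164.9 CPM at rest and 146.2, 180.3 and 196.7 CPM after activation. The 2 states overlapped through 2 activated libraries, replicates 2 and 6, and resting replicates 5 and 6. In NZB cells it measured 67.8, 124.8 and 156.6 CPM at rest and 157.6, 179.8 and 215.5 CPM after activation, without overlap. The log2 fold change was 0.31 ± 0.11 (edgeR, adjusted p = 0.0201) in B6 cells and 0.48 ± 0.11 (adjusted p = 0.000713) in NZB cells. Without replicate 4 of activated B6 cells the adjusted p in B6 cells was 0.0535, with the second count table it was 0.0536, and with a block by label number it was 0.106.

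Idh3a encodes the catalytic subunit of NAD-dependent isocitrate dehydrogenase, a regulated step of the cycle. It measured 97.3, 102.3 and 132.1 CPM at rest and 113.3, 141.1 and 145.4 CPM after activation in B6 cells, with overlap. In NZB cells it measured 50.8, 79.0 and 97.4 CPM at rest and 109.6, 128.5 and 164.7 CPM after activation, with all 6 activated libraries above all 6 resting ones. It rose by 0.32 ± 0.11 in B6 cells (edgeR, adjusted p = 0.0222) and by 0.67 ± 0.12 in NZB cells (adjusted p = 3.92e-05). The call in B6 cells did not hold without resting replicate 2 (edgeR, adjusted p = 0.0519), without a filter on low counts (0.0543), with the second count table (0.0533) or with a block by label number (0.0515).

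Ogdh encodes the E1 subunit of the complex that turns 2-oxoglutarate into succinyl-CoA, and it was the only gene of the 9 to fall in either comparison. In B6 cells it measured 162.2, 171.1 and 176.8 CPM at rest and 114.0, 129.1 and 147.4 CPM after activation, and no activated library reached the resting range. It fell by 0.39 on the log2 scale (SE 0.09, edgeR, adjusted p = 0.00113). Of the resting mtDNA NZB libraries, replicates 1, 3 and 4 lay at 172.3 to 175.2 CPM. Replicates 5 and 6 lay at 128.8 and 129.7 CPM, within the range of the activated libraries, 115.0 to 135.6 CPM. Replicate 2, the smallest library, had 135.5 CPM on 8 counts and cannot be placed with either. In NZB cells Ogdh fell by 0.30 (SE 0.10, edgeR, adjusted p = 0.0109). That call was lost without a filter on low counts (adjusted p = 0.0957), with the second count table (0.0633), in a fit of the 12 NZB libraries alone (0.0767) and with scaling by total count alone (0.157), which moved the median log2 fold change of all genes from -0.06 to 0.06 in NZB cells and from -0.03 to 0.10 in B6 cells.

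Fh1 encodes fumarate hydratase, which turns fumarate into malate. It had the largest change relative to its standard error among the 9 genes in both comparisons. In B6 cells it measured 58.7, 62.0 and 86.3 CPM at rest and 116.9, 124.3 and 133.6 CPM after activation, without overlap. In NZB cells it measured 38.0, 54.6 and 118.6 CPM at rest and 109.4, 129.5 and 163.2 CPM after activation. The resting value of 118.6 CPM stands on 7 counts in the smallest library, and the other 5 resting libraries lay at or below 62.1 CPM, under every activated one. Fh1 rose by 0.90 ± 0.13 in B6 cells (edgeR, adjusted p = 3.74e-06), a 1.87-fold rise, and by 1.33 ± 0.14 in NZB cells (adjusted p = 3.06e-08), 2.51-fold.

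Mdh2 encodes the enzyme that returns malate to oxaloacetate and closes the cycle. It measured 220.8, 273.6 and 330.1 CPM at rest and 323.2, 361.4 and 392.3 CPM after activation in B6 cells. Only resting replicate 5 came within the activated range. In NZB cells the values were 204.6, 241.6 and 321.8 CPM at rest and 304.0, 424.3 and 452.9 CPM after activation, and the resting value of 321.8 CPM was again that of the smallest library. Without that library the highest resting value was 261.8 CPM and the groups did not overlap. Mdh2 rose by 0.37 ± 0.11 in B6 cells (edgeR, adjusted p = 0.00795) and by 0.75 ± 0.12 in NZB cells (adjusted p = 8.01e-06).

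In B6 cells 2 of the 9 genes, Fh1 and Ogdh, did not overlap between states, as did not 31.8% of all genes tested. In NZB cells 3 of the 9, Dlat, Cs and Idh3a, did not overlap, beside 18.9% of all genes, and without the smallest library 5 did not, with Fh1 and Mdh2 added, beside 28% of all genes. The libraries also fell into 3 sets of 8 by the reads behind each UMI (1.88 to 1.96, 2.11 to 2.24 and 2.68 to 2.80). Of the activated mtDNA B6 libraries 5 were in the first set, which held 0 of the resting ones, so most of that comparison cannot be told apart from the set. The single set with both states of B6 cells had 1 activated and 4 resting libraries. The activated minus resting difference of mean log2 levels there was 1.11 for Fh1, 0.63 for Mdh2, 0.45 for Cs, 0.49 for Idh3a, 1.43 for Pcx and -0.42 for Ogdh. With the set as a term of the model, Cs (edgeR, adjusted p = 0.0646) and Idh3a (log2 fold change 0.19, adjusted p = 0.311) were no longer called in B6 cells, and the other 4 calls there and all 7 in NZB cells were kept. Each mtDNA NZB set held both states, and the difference ran from 1.00 to 1.49 for Fh1, from 0.70 to 0.98 for Mdh2, from 0.47 to 0.65 for Cs, from 0.58 to 0.74 for Idh3a, from 0.75 to 1.76 for Dlat, from 0.69 to 1.89 for Pcx and from -0.47 to -0.26 for Ogdh. The first and second sets held 1 resting NZB library each. The third set held 4, among them the smallest library, which had a count of 0 for Dlat and Pcx. It gave the highest values of Dlat and Pcx and the lowest of Fh1 and Mdh2.

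**Figure D2:**
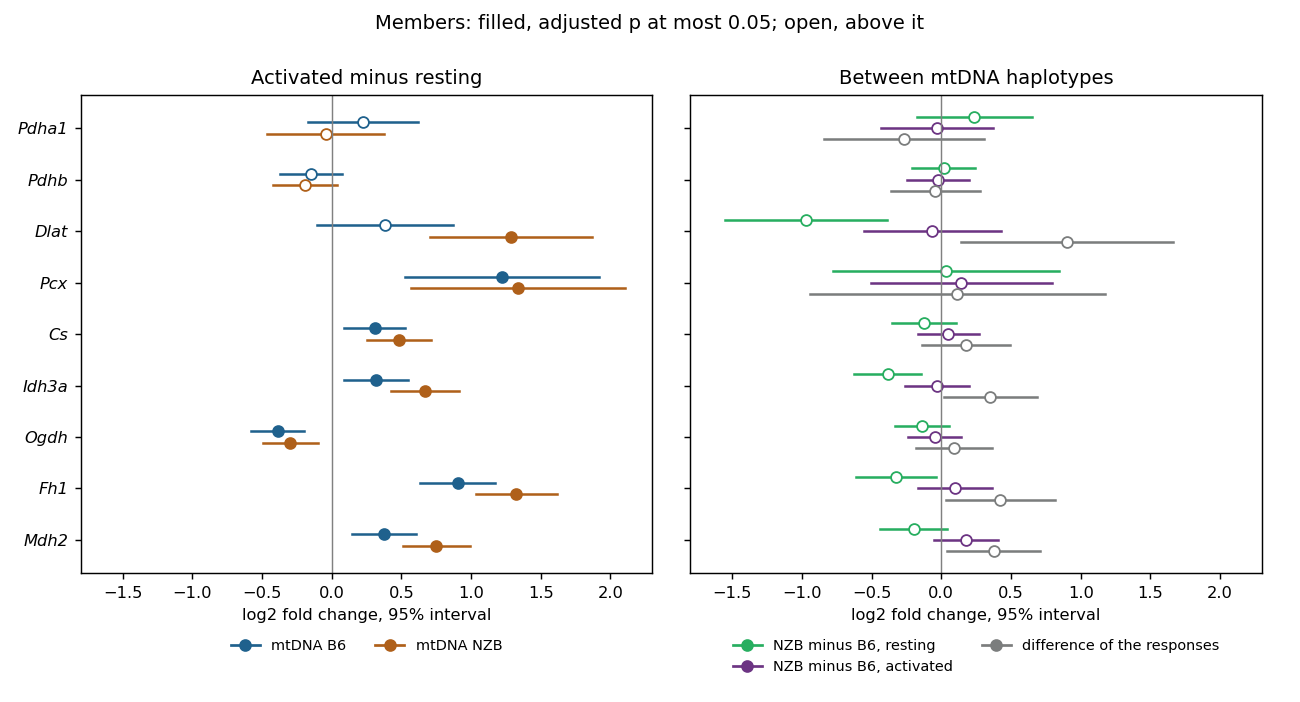
Points are log2 fold changes from edgeR and lines their 95% intervals, for the 9 genes on the vertical axis. The left panel compares activated with resting cells in each mtDNA and the right panel compares mtDNA NZB with B6 cells at rest and after activation, with the difference of the 2 responses. Filled points have an adjusted p of at most 0.05, which 6 (mtDNA B6) and 7 (mtDNA NZB) genes reached on the left and 0 on the right.

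The second question was whether the mtDNA alters these genes within a state. At rest 0 of the 9 genes differed between mtDNA NZB and B6 cells by edgeR, beside 2.76% of all genes, while 3 of the 9 had an unadjusted p under 0.05, beside 20.8% of all genes, and DESeq2 called 1, Idh3a (adjusted p = 0.048), beside 4.27% of all genes. Those 3 were all lower in NZB cells. Dlat had a mean of 2.91 ± 0.74 CPM in the 5 resting mtDNA NZB libraries other than the smallest (SD, n = 5) and 5.71 ± 1.52 CPM in resting B6 cells (SD, n = 6). Its highest mtDNA NZB library, 4.03 CPM, exceeded only 1 mtDNA B6 library, that of 3.31 CPM. The log2 difference (NZB minus B6) was -0.97 ± 0.28 (edgeR, adjusted p = 0.057). It passed with the second count table (adjusted p = 0.0302), without replicate 3 of resting NZB cells (0.0366) and without replicate 2 of resting B6 cells (0.041), so that the call lies at the limit of the threshold. Idh3a measured 78.2 ± 15.7 CPM in mtDNA NZB cells (83.7 ± 9.2 CPM without the smallest library) and 107.7 ± 13.7 CPM in B6 cells, a log2 difference of -0.38 ± 0.12 (edgeR, adjusted p = 0.0674), which passed without replicate 3 of resting NZB cells (0.0371). Fh1 differed by -0.32 ± 0.14 (adjusted p = 0.184). The other 6 genes had log2 differences between -0.20 and 0.24, and those of Pdhb and Pcx, 0.02 and 0.03, changed sign under some settings.

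After activation none of the 9 genes differed between the haplotypes by edgeR or by DESeq2, and 0 had an unadjusted p under 0.05. Both tools called 0 of all 10566 genes (0%), of which 327 (3.09%) had an unadjusted p under 0.05 by edgeR. The log2 differences (NZB minus B6) ran from -0.07 for Dlat to 0.18 for Mdh2. The 95% intervals come from the standard errors and describe these libraries only. For Cs and Pcx the test gave a larger unadjusted p (edgeR, 0.95 and 0.949) than those standard errors would. The intervals therefore do not bound a difference that could have been missed. For Cs the interval was -0.17 to 0.27, for Ogdh -0.24 to 0.14, for Fh1 -0.17 to 0.36 and for Mdh2 -0.05 to 0.41, whereas for Pcx it was -0.51 to 0.80 and for Dlat -0.56 to 0.43.

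The response to activation was compared between the haplotypes with an interaction term, in which a positive value is a larger rise in NZB cells. By edgeR 0 of the 9 passed, beside 0% of all genes, and DESeq2 called 0 of the 9 and 1 gene in all. Without adjustment, 4 of the 9 had a p under 0.05, beside 14.3% of all genes. Dlat had 0.90 ± 0.37 (unadjusted p = 0.0216, adjusted p = 0.271 by edgeR), Fh1 0.42 ± 0.19, Mdh2 0.37 ± 0.16 and Idh3a 0.35 ± 0.16, with adjusted p of 0.299 to 0.329 for these 3. All 4 were positive. Cs had 0.18 ± 0.15, Pcx 0.11 ± 0.51, Ogdh 0.09 ± 0.13, Pdhb -0.04 ± 0.15 and Pdha1 -0.27 ± 0.28. Over 21 libraries, without replicates 2 and 6 of resting and replicate 6 of activated NZB cells, 1.04% of all genes were called. The values of Mdh2 and Fh1 were larger there, 0.53 (edgeR, adjusted p = 0.0591) and 0.52 (adjusted p = 0.119). Those of Dlat and Idh3a were smaller, 0.83 (edgeR, adjusted p = 0.267) and 0.31 (adjusted p = 0.336). The unadjusted p was then 0.0499 for Dlat and 0.0801 for Idh3a (edgeR). The call of Dlat in NZB cells beside none in B6 cells therefore does not show a different response.

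Other genes of the pathway were read from 6 lists of 43 genes, of which 38 were tested. Of the other enzymes and subunits of the TCA cycle, 7 of 12 rose and 0 fell in B6 cells, beside 22.4% of all genes called higher and 24.5% lower, and 10 of 12 rose and 0 fell in NZB cells, beside 25.2% and 28.4%. The median log2 fold changes of that list were 0.28 and 0.46. Sdhb, the iron-sulfur subunit of succinate dehydrogenase, which makes the fumarate that Fh1 uses, had 177.5, 201.6 and 247.3 CPM at rest and 404.6, 457.0 and 499.0 CPM after activation in B6 cells. It rose by 1.16 ± 0.11 in B6 cells (edgeR, adjusted p = 9.4e-09) and by 1.24 ± 0.12 in NZB cells (adjusted p = 4.99e-09), and no states overlapped. Dlst, the partner of Ogdh in its complex, did not pass, with log2 fold changes of -0.14 and -0.20. Of the 2 other subunits of pyruvate dehydrogenase, 1 rose in each haplotype. That gene, Dld, also serves the complex of Ogdh and had log2 fold changes of 0.76 and 0.54.

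Entry of pyruvate is also set by its carrier and by the kinases and phosphatases of pyruvate dehydrogenase. Of the 7 genes for the kinases, phosphatases and their regulator, 5 were tested and 1 rose in each haplotype. That is near the share of all genes called higher, 22.4% in B6 cells and 25.2% in NZB cells. The gene that rose was Pdk3, an inhibitory kinase. It measured 6.41, 9.51 and 11.2 CPM at rest and 14.3, 25.5 and 28.2 CPM after activation in B6 cells. Its log2 fold change was 1.39 ± 0.20 (edgeR, adjusted p = 3.6e-06), and 1.17 ± 0.22 in NZB cells (adjusted p = 7.51e-05). Pdk1, another kinase, had log2 fold changes of 0.23 ± 0.19 and 0.15 ± 0.20, and Pdk2 of -0.55 ± 0.28 and -0.09 ± 0.30, and neither passed. Pdk4 had no count in any library, which allows up to 0.0394 CPM over all 24 (3 counts), and Pdp1, a phosphatase that activates the complex, was too low to test, with 0 to 13 counts per library. Mpc1 and Mpc2 form the mitochondrial pyruvate carrier. Mpc2 passed narrowly in NZB cells, with 0.33 ± 0.13 (edgeR, adjusted p = 0.0367) beside 0.14 ± 0.13 in B6 cells, which did not pass, and its adjusted p was 0.0536 to 0.0994 without activated replicate 2 or 3 or without resting replicate 1, 3 or 4 of NZB cells. Mpc1 had 0.31 ± 0.22 and 0.42 ± 0.24, and passed in NZB cells without resting replicate 2 (adjusted p = 0.0332) or resting replicate 6 (adjusted p = 0.042).

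Of the enzymes and carriers next to the cycle, 14 of 15 were tested, and 7 rose and 3 fell in B6 cells and 7 rose and 4 fell in NZB cells. Of all genes tested, 22.4% were called higher and 24.5% lower in B6 cells and 25.2% and 28.4% in NZB cells, so the falls of this list were near the share of all genes. Ldha, which turns pyruvate into lactate and so competes for it, had the largest rise of the list, with log2 fold changes of 1.87 ± 0.14 and 1.91 ± 0.14. Got2, the mitochondrial aspartate aminotransferase, which draws on oxaloacetate, rose by 1.23 ± 0.14 and 1.43 ± 0.15. Got1, the cytosolic counterpart of Got2, fell by 1.04 in NZB cells (SE 0.35, edgeR, adjusted p = 0.0145). That fall rested on resting replicates 5 and 6, at 219.1 and 214.8 CPM, and it did not pass without the former (-0.65, adjusted p = 0.104) or the latter (-0.66, adjusted p = 0.0965). Of the 5 genes for lipoylation and cofactor supply, 3 were tested. Hlcs, which attaches biotin to carboxylases such as pyruvate carboxylase, fell by 1.00 (SE 0.18, edgeR, adjusted p = 7.79e-05) in B6 cells and by 0.67 (SE 0.19, adjusted p = 0.00479) in NZB cells, while Lias, lipoic acid synthase, rose in NZB cells with 0.26.

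**Figure D3:**
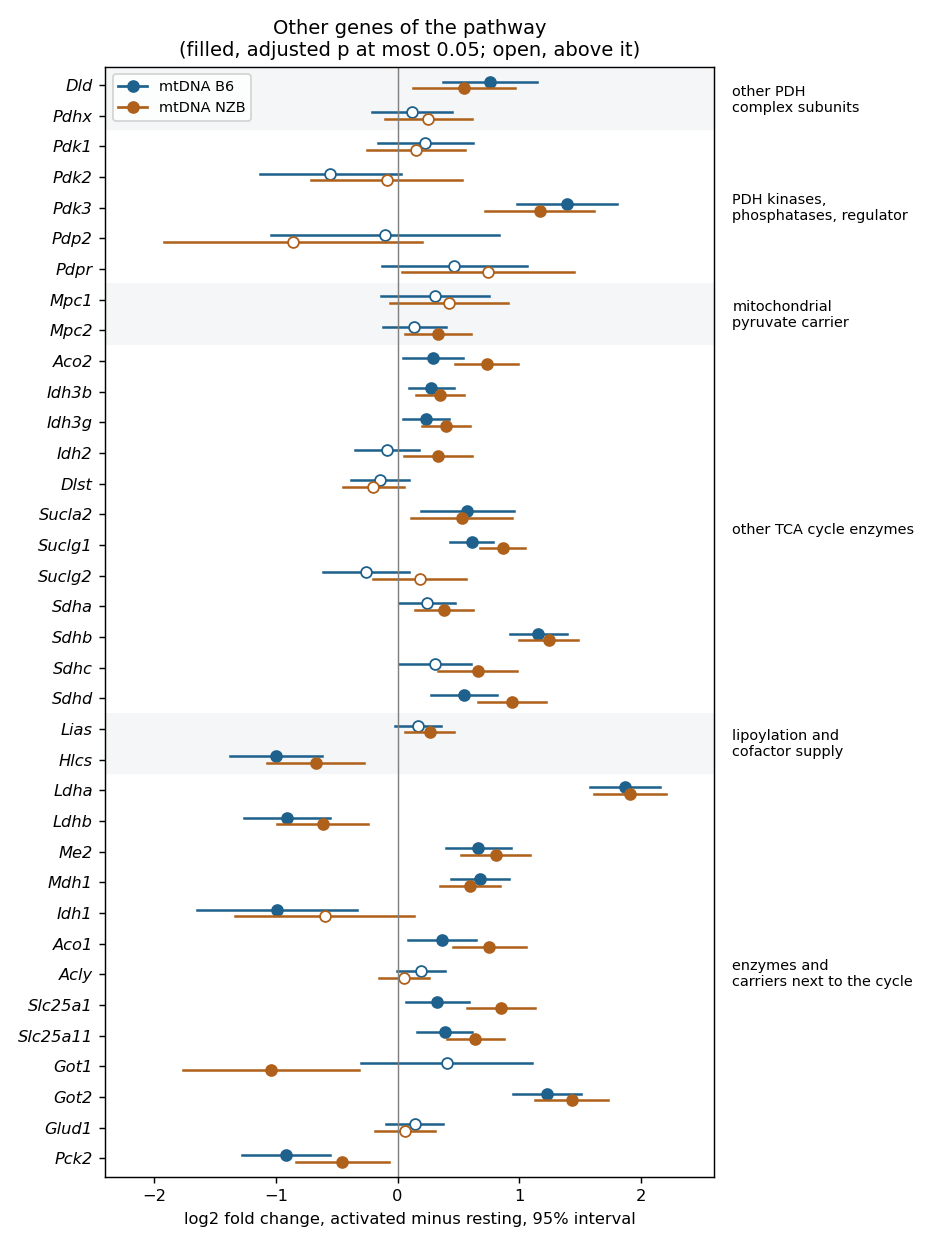
Points are log2 fold changes of activated minus resting cells from edgeR, with 95% intervals, for 36 of the 38 tested genes of the 6 lists, grouped as named at the right. Filled points have an adjusted p of at most 0.05, and 10 of 12 of the other TCA cycle genes are filled and to the right of 0 in NZB cells.

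Ogdh fell while other enzymes of the cycle rose, and the ratio of 2 genes within a library does not depend on the scaling between libraries. The ratio of Fh1 to Ogdh counts was 0.387 ± 0.061 at rest and 0.957 ± 0.119 after activation in B6 cells (SD, n = 6), with no overlap. In NZB cells it was 0.422 ± 0.231 and 1.05 ± 0.13, and the resting libraries other than the smallest lay between 0.263 and 0.446. Mdh2 to Ogdh went from 1.61 ± 0.21 to 2.74 ± 0.22 and from 1.68 ± 0.49 (1.17 to 2.02 without the smallest library) to 3.22 ± 0.58. The 9 genes together made up 896 ± 73 CPM at rest and 1055 ± 61 CPM after activation in B6 cells, and 796 ± 21 and 1109 ± 107 CPM in NZB cells. These ratios and sums were computed from genes already described and are given with no test.

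**Figure D4:**
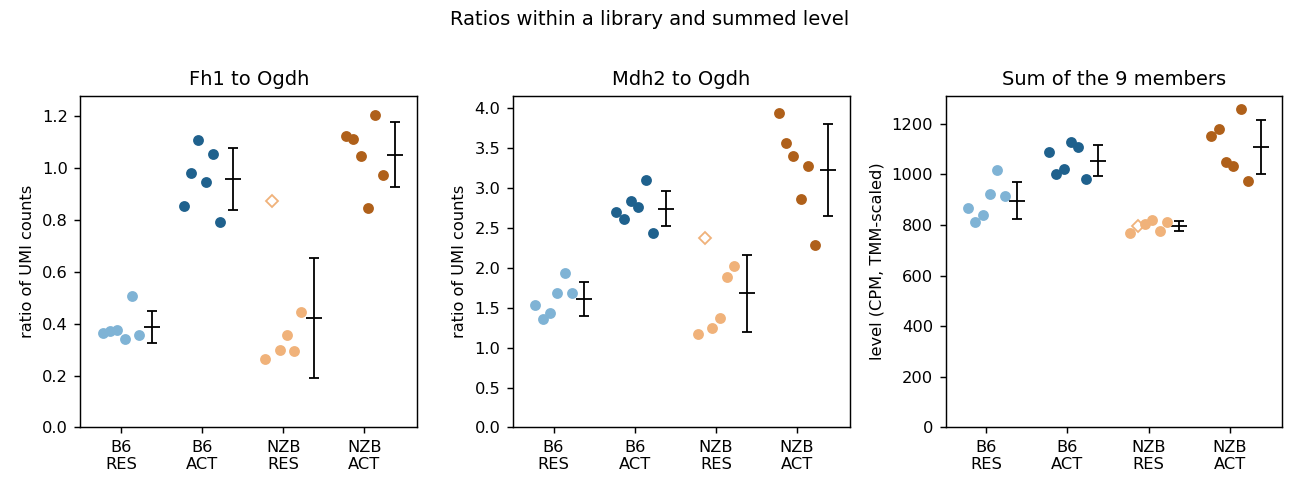
The left and middle panels show the ratio of Fh1 and of Mdh2 counts to Ogdh counts in each library, and the right panel the summed level of the 9 genes in CPM, all from 0, for the 4 groups of 6 libraries. Points are libraries, bars are the mean ± SD and the open diamond is the library of 51409 UMI counts. The ratio of Fh1 to Ogdh was at most 0.508 in resting and at least 0.793 in activated mtDNA B6 libraries.

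Across the 23 libraries with at least 100000 UMI counts, Pearson's r between the log2 levels of the 6 rising genes ran from 0.603 (Dlat and Pcx) to 0.891 (Fh1 and Mdh2) over their 15 pairs. These points share the change of state. After the group means were taken out, r ran from 0.151 (Dlat and Fh1) to 0.610 (Cs and Mdh2). Ogdh had r from -0.764 (with Cs) to -0.293 (with Dlat) with these genes, and from -0.470 to 0.296 within groups. Pdha1 and Pdhb, whose products form 1 enzyme component, had r = 0.618 over all libraries and 0.759 within groups. Among 7538 genes with a mean of at least 10 CPM, the pattern most like that of Fh1 was Ndufs8, a subunit of respiratory complex I (r = 0.981), followed by Pimreg (0.975). Those of Mdh2 were Ruvbl2 (0.959) and Tuba1b (0.956), those of Cs Tmem97 (0.949) and Fen1 (0.941), and those of Idh3a Mrps15, a mitochondrial ribosomal protein, and Mcm8 (both 0.922). Ogdh was most like B3gntl1 (0.919) and Top3b (0.916), Pdha1 most like Tnks2 (0.892) and Eif4g2 (0.832), and Pdhb most like Tgoln1 (0.895) and Bmi1 (0.868). For the low genes, Pcx was most like Cchcr1 (0.943) and Exosc2 (0.921), and Dlat most like Aldh9a1 (0.924) and Cad (0.854). Libraries of 1 state share their state and set, so these values are descriptions.

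The genes lie on 8 chromosomes of GRCm39. Pdha1 is at X:158904237-158921426, Pdhb at 14:14296739-14304802, Dlat at 9:50543457-50571277 and Pcx at 19:4559902-4672189. Cs is at 10:128172837-128198363, Idh3a at 9:54493575-54514730, Ogdh at 11:6241551-6309233, Fh1 at 1:175425290-175453205 and Mdh2 at 5:135807292-135820882. Counts come from the last 1000 bases of transcripts. Within them 5 of the 9 overlap a gene of the opposite strand, and whether counting used strand is not given in the sources used here. The partners are Map3k15 for Pdha1 (460 bases), Pxk for Pdhb (338 bases), Rce1 for Pcx (50 bases), Coq10a for Cs (56 bases) and Acsbg1 for Idh3a (1000 bases). Rce1 had a median of 42 CPM (32.1 to 57.9), above the medians of Pcx in all 4 groups, and Pxk of 80.4 CPM, Coq10a of 17.3 CPM, Acsbg1 of 9.5 CPM and Map3k15 of 2.96 CPM. Dlat, Ogdh, Fh1 and Mdh2 overlap no other gene there.

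Promoters of 8 of the 9 genes were in the RefSeq table used (GRCm38.p6, 250 bases before to 50 after each start). They were searched on both strands for CACGTG (the E-box of MYC and MAX), CCGGAAG (ETS factors such as GABPA) and CCAAT (NF-Y). The ETS motif was in 0 of the 8, beside 8.86% of all 32851 promoters. The E-box was in 2, Pcx and Ogdh, beside 7.15%. CCAAT was in 5, namely Pdhb, Pcx, Cs, Ogdh and Fh1, beside 37.4%, and each of these had a copy that starts 40 to 80 bases before a start site, as had 10.5% of all promoters. That interval was chosen after the matches were seen, and Ogdh has 6 starts in the table and Pcx 2. A gene was counted if any of its starts had a match, whereas the shares are of single promoters. The 5 genes include 1 that fell (Ogdh), 1 that did not pass (Pdhb) and 3 that rose. Those copies are shown in windows of 30 bases on the strand of the gene, 5′ to 3′, with the motif in capitals (ATTGG is CCAAT on the other strand). They are printed because 5 of the 8 genes have such a copy at a start.
Fh1, chr1:175625688-175625717, minus strand: ccattagttattATTGGccagtcatggtta
Cs, chr10:128337660-128337689, plus strand: ttccattttgggCCAATggtcgaggccggg
Pcx, chr19:4510409-4510438, plus strand: agggccagtcatCCAATctttggaggggtt
Ogdh, chr11:6291525-6291554, plus strand: agcgactgaaacCCAATtctgtgacgtcac
Pdhb, chr14:8173035-8173064, minus strand: agttaccattctATTGGctttgccgaacag
A match is a description of letters and no binding was measured.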

How the data were processed

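RNA of 24 libraries of splenic Tconv CD4+ cells was used, grouped by mtDNA and state from the sample labels. The authors deposited UMI-corrected counts per gene, whole numbers not scaled to library size. According to the paper's methods and the submitters' processing notes, cutadapt trimmed the reads, STAR placed them on the last 1000 bases (the 3′ UTR regions) of GRCm39 genes and HTSeq counted them, and copies of a UMI and saturation were then corrected for. Reading only the 3′ end can divide reads between overlapping genes. The labels and the paper differ on the amount of input RNA and the isolation kit. A second deposited table of larger counts, read as the counts before deduplication, served as an alternative. 1 column matched no sample and was not used.

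Genes with low counts were removed with filterByExpr, and 4 groups were fitted together in R 4.3.3 with edgeR 4.0.16 (TMM scaling, quasi-likelihood test, Benjamini-Hochberg adjustment over 10566 genes). A call needed an adjusted p of at most 0.05, with no fold cut-off. The standard error is the size of a log2 fold change divided by the square root of F, and intervals cover 95%. The scripts were tested on simulated data. DESeq2 1.42.0, other scalings and filters, a term for the library set, replicate blocks and left-out libraries were the alternatives. No library of a group repeated another within sampling noise (the lowest chi-square divided by its degrees of freedom was 2.97), so none were merged. That does not show that they came from separate mice.

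The 9 genes, the lists and the tests were chosen with earlier results of these data known. The named genes are the 9, the genes of the lists called on activation with a log2 fold change of 1 or more in either direction, Pdk1 to Pdk4, Pdp1, Mpc1 and Mpc2, the 2 genes most like each of the 9, and Il2ra and Mki67. Cd79a, Myc, Dlst, Dld, Lias and the overlapping genes were named in addition after their values were seen. Not every gene of the lists that the rule names is reported here, and the counts cover the lists as chosen. Likeness was measured on log2 CPM (prior count 2). Intervals and limits of a count of 0 cover counting error only.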

Additional observations from a re-analysis of the deposited data

Results flagged for a closer look

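Among the 4 groups of 20 named genes (80 groups), 6 had a highest or lowest library farther from the nearest other than Dixon's 95% value allows, where chance flags about 1 group in 20. Replicate 2 of resting mtDNA NZB cells, the library of 51409 UMI counts, accounts for 5 of the 6. In it Fh1 had 118.6 CPM on 7 counts (nearest 62.1), Sdhb 304.9 CPM on 18 counts (nearest 222.3), Mpc1 67.8 CPM on 4 counts (nearest 21.3), Pdk2 33.9 CPM on 2 counts (nearest 15.4) and Mpc2 16.9 CPM on 1 count (nearest 102.1). The sixth was Fh1 in replicate 5 of resting mtDNA B6 cells, with 86.3 CPM on 487 counts (nearest 66.1). Without that replicate the log2 fold change of Fh1 on activation in mtDNA B6 cells was 1.00.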

How the results depend on the processing

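The counts of called genes on activation were within 1.5 times of 6 (B6 cells) and 7 (NZB cells) under every alternative except a fold cut-off, which left 1 and 3. Leaving out each library gave 5 to 6 and 7. At rest the haplotypes differed in 1 gene with DESeq2, which called 4.27% of all genes there. They differed in 1 with the second count table, and in 0 to 2 when libraries were left out. The share of all genes called is not given here for the second count table or the left-out libraries. Those counts are descriptions only. Single calls were lost in B6 cells for Cs (second count table, library set as a term, block by label number) and Idh3a (these and no filter), and in NZB cells for Ogdh (total counts, no filter, second count table, 12 libraries) and Pcx (block by label number). The cause was not tested. Dlat and Pcx could not be tested with the stricter filter, nor Pcx in the activation comparisons over 12 libraries. No low gene can be read from the library of 51409 UMI counts, and Dlat and Pcx rest on at most 46 counts per library.

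Directions turned only for log2 fold changes that had not passed. With total counts they were 0.0925 for Pdha1 and 0.0058 for Pdk2 (activation, NZB cells), -0.0293 for Pdhb and -0.0149 for Pcx (at rest, NZB minus B6) and -0.0034 for Cs (activated, NZB minus B6). At rest Pdhb had -0.0117 without a filter, and Pcx -0.481 with the second count table and -0.195 over 21 libraries, over which Pdk1 had -0.0573 on activation of NZB cells. With the library set as a term the activated haplotypes differed by 0.037 for Pdha1, 0.0396 for Idh3a and 0.0237 for Ogdh.

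Same-numbered libraries deviated together (r over 0.1) in 3 of the 5 B6 pairs by label number (r from -0.07 to 0.296) and in 0 of the 4 NZB pairs (-0.197 to -0.02). The labels do not say what the numbers mark, and the main test did not use them as pairs. For B6 cells these values do not show that the libraries were unpaired. With a replicate block by label number 4 genes were called on activation of B6 cells and 6 of NZB cells, with a block by title number 6 and 7. The shares of all genes called with these blocks are not given here, so the counts are descriptions only. The resting library of those 3 B6 pairs correlated best with its own number. The block by title number gave 0.0136 for Dlat (activated, NZB minus B6), and that by label number gave interactions of 0.0041 for Pdhb and -0.437 for Pcx. The block by label number gives no haplotype difference, and the interaction has no fit over 12 libraries.

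When each library was left out, signs turned for Pdha1 (-0.155 to 0.0858) and Pdk2 (-0.242 to 0.124) on activation of NZB cells, for Pdhb (-0.0277 to 0.0593) and Pcx (-0.207 to 0.249) at rest, for Pdha1 (-0.159 to 0.096), Pdhb (-0.0878 to 0.0384), Dlat (-0.158 to 0.0578), Pcx (-0.0065 to 0.332), Cs (-0.0042 to 0.0912) and Idh3a (-0.11 to 0.0157) between activated haplotypes, and for the interactions of Pdhb (-0.104 to 0.0223) and Pcx (-0.107 to 0.345). The alternatives for the other genes of the pathway were chosen after seeing the data.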
